A study of Mus musculus with 9 samples.

Results

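Sfmbt2, a mouse gene for a Polycomb-group protein with MBT domains, carries a large cluster of microRNA hairpins in one of its introns, and both were followed here through 9 RNA-seq libraries of extra-embryonic endoderm stem (XEN) cells. The cluster was taken as every gene whose symbol starts with Mir and which starts on chromosome 2 between 10.37 and 10.6 Mb (GRCm38), and the host gene Sfmbt2 was added. The rule gave 71 Mir genes and 1 host, 72 of the 55401 genes of the larger count table. The rule itself uses names and positions, but the set was chosen by looking at the counts of these same 9 libraries, in which the cluster separates WT_EV from the other groups. The values of these 72 genes are therefore given as a description, with no test. Calls of a test are given only for genes outside the set.

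The cells are a female XEN line from a Mus musculus molossinus by Mus musculus cross, and all groups share that origin. The DXp group (n = 2) carries a paternal deletion and the DXp_DXm group (n = 2) a homozygous deletion, which the study places upstream of Xist, the noncoding RNA that coats the inactive X chromosome. The wild-type groups are WT_clone (n = 2), described as wild-type clones and held in a separate count table, and WT_EV (n = 3), whose suffix is not explained in the sources used here. The titles name both DXp libraries D1 and both DXp_DXm libraries D3, so each deletion may rest on 1 clone, and p-values then measure only the spread between these libraries. For DXp, the title numbers run opposite to the rep numbers, and the rep numbers are used here. The study asked what the deletion does to XEN cells. Any difference between a deletion and WT_EV shares its WT_EV libraries with the other such differences. The labels give no date or batch, but their protocols name stranded library kits of 2 makes.

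The 7 libraries of the larger table held 14352719 to 29335803 counts, and the 11512 genes held in both tables had 2298180 to 7641676 counts per library. Xist had 338652 and 400096 counts in DXp libraries, 131675 and 227870 in DXp_DXm libraries, 102206 and 122140 in WT_clone libraries, and 12244 to 26048 in WT_EV libraries. A deletion upstream of the gene need not remove the counted exons, so this checks no label. The 9 XEN markers fixed for the cell type check summed to 5238 to 12051 CPM (counts scaled to library depth) in DXp libraries, 7505 to 10108 in DXp_DXm libraries and 17671 to 25766 in WT_EV libraries. Most of that sum was Lama1 and Col4a1, except in DXp replicate 1. Of the 9 markers 2 were higher and 3 lower in DXp and 2 higher and 4 lower in DXp_DXm against WT_EV by edgeR. Over all tested genes, 72.3% and 66.8% were called in these comparisons. Sox7 and Dab2 were the higher ones, Gata4, Foxa2 and Lama1 were lower in both, and Sox17 was lower in DXp_DXm alone. In WT_clone libraries, which list only 2 of them, Sox17 had 9058 and 2170 counts and Foxa2 3782 and 679. Gata3, a trophoblast marker, had 42 and 317 counts there. Col4a1 was the one XEN marker listed at 0 in a library, DXp replicate 1. The 7 pluripotent, 7 trophoblast and 8 fibroblast markers each summed to at most 4.86 CPM, and Sox2, Tfap2c, Hand1, Thy1, Col1a2, Col3a1 and Twist1 were at 0 in all 7.

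Sfmbt2 is imprinted in mouse extra-embryonic tissue, where it is expressed from the paternal allele, and it is needed for the placenta. Its intronic hairpins belong to rodent-expanded families, chiefly miR-297, miR-466, miR-467 and miR-669, which are transcribed with the host and cut from the primary transcript by the Drosha and Dgcr8 Microprocessor before Dicer1 trims them. Ordinary RNA-seq captures few mature microRNAs, so a read on a Mir gene is taken here to come from a longer RNA that spans the hairpin. Such an RNA could be the unspliced host transcript or an excised intron, which was not tested. The counts below are thus read as levels of hairpin-containing RNA and not of mature microRNAs.

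No member of the cluster was matched in the RefSeq microRNA table used (GRCm38.p6). Of 10 genes of the same 4 families elsewhere in the genome, 8 had a mature sequence there. The following 4, from 3 of the families, show what a mature product of these families looks like, with the seed, bases 2 to 8, in capitals.
mmu-miR-466q: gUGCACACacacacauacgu
mmu-miR-466i-3p: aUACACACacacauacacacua
mmu-miR-467h: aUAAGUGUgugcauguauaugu
mmu-miR-669n: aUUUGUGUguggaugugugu
They lie at chr3:28419988-28420007 (+), chr13:17747552-17747573 (+), chr9:115381898-115381919 (+) and chr3:115979905-115979924 (+). These 4 genes had 0 reads in every library that lists them, apart from 1 read on Mir669n in DXp replicate 1. Over all 10 genes of the families elsewhere, the 7 libraries of the larger table held 1 read in all.

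Sfmbt2 (ENSMUSG00000061186) spans chr2:10370510-10595253 on the plus strand, with 9128 bases of exon. All 71 Mir genes lie on the same strand between exons 10 and 11 of transcript Sfmbt2-201, in an intron of 62.472 kb at chr2:10461473-10523944. The cluster covers 51.617 kb, from Mir466m, 5.19 kb into the intron, to Mir669h, 5.665 kb before the next exon. Hairpin genes were 73 to 127 bases long and 31.5% to 43.4% GC, and together they cover 6.614 kb. The edges of the window are far from the cluster: the table lists no Mir gene on the chromosome before it, and the nearest after it, Mir511, lies 3.66 Mb beyond and had 0 reads in every library. The same intron holds 48 further microRNA genes with provisional Gm symbols, which the naming rule leaves out and which are used below for comparison.

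One of the RefSeq starts of the host has a YY1 core motif in its promoter window, shown because the hairpins are transcribed from the host's promoter and because Pho, the fly homologue of YY1, is the DNA-binding partner of fly Sfmbt. The 300 bases at chr2:10372186-10372485 (+, GRCm38.p6) follow, with the motif GCCATNTT in capitals.
Sfmbt2 promoter: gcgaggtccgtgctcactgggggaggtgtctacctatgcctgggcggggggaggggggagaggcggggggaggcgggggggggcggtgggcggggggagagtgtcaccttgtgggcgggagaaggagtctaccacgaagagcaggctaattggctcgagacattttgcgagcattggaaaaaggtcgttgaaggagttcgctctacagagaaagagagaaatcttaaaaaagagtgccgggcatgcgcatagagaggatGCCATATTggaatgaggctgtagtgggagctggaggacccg
The motif, sought on both strands, occurs once here, not at all in the window of the other listed start (chr2:10370201-10370500), and in 6.05% of 32851 promoter windows. The window holds 16 CpG dinucleotides, more than 67.0% of promoters.

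The cluster was high in WT_EV cells and close to absent in the other 3 groups, while the host was present in all. Reads summed over the 71 Mir genes were 50 and 7 in DXp replicates 1 and 2, 126 and 76 in DXp_DXm libraries, 25 and 18 in WT_clone libraries, and 1368, 2150 and 947 in WT_EV libraries. All 3 WT_EV libraries lay above all others, although they were the shallowest. As CPM over the genes both tables share, the summed level averaged 6.19 ± 7.06 in DXp (SD, n = 2), 17.6 ± 6.24 in DXp_DXm (n = 2), 3.41 ± 0.514 in WT_clone (n = 2) and 428 ± 95.6 in WT_EV (n = 3). On the CPM scale of each comparison, the sum was 52.9 times lower in DXp than in WT_EV, 18.2 times lower in DXp_DXm than in WT_EV and 126 times lower in WT_clone than in WT_EV. DXp_DXm was 2.90 times as high as DXp, 5.16 times as high as WT_clone, and DXp was 1.82 times as high as WT_clone. The values that involve DXp rest on its 2 unlike replicates: the log2 change of DXp against WT_EV was -5.73 with both, -7.99 without replicate 1 and -4.86 without replicate 2. Without replicate 1, the log2 change of DXp_DXm against DXp was 3.88, against 1.54 with both, and that of DXp against WT_clone was -1.49, against 0.86.

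**Figure D1:**
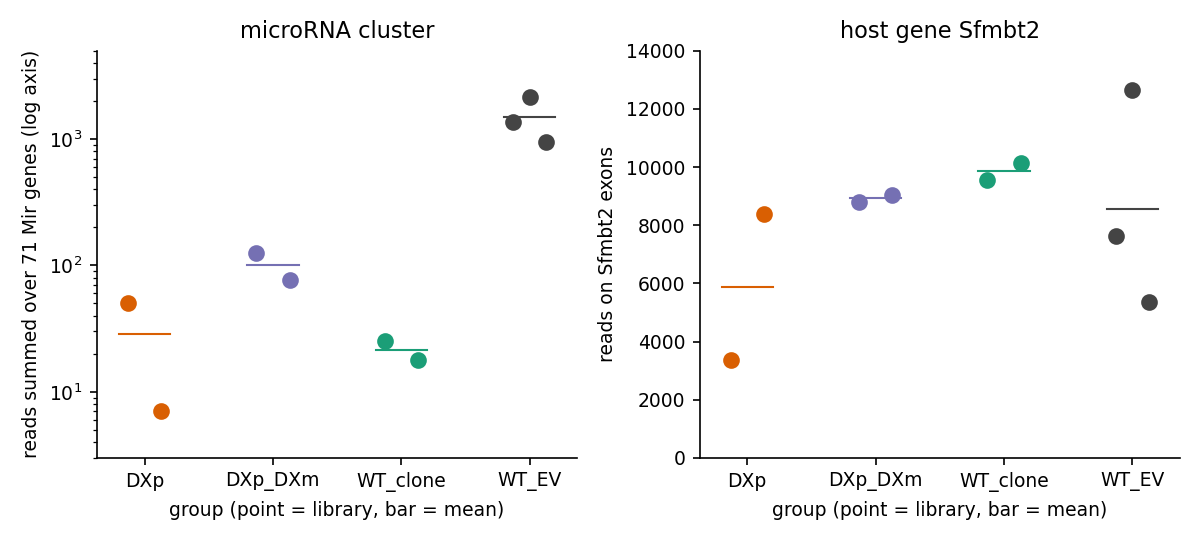
Reads summed over the 71 Mir genes (left, log axis) and reads on Sfmbt2 exons (right) in each library of DXp, DXp_DXm, WT_clone and WT_EV, not corrected for depth, with points for libraries and bars for group means. The cluster sums of WT_EV, 947 to 2150, lie above all others, which reach at most 126, whereas the host's ranges overlap between groups.

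Sfmbt2 itself was read in every library. It had 3369 and 8396 counts in DXp replicates 1 and 2, 8811 and 9047 in DXp_DXm libraries, 9543 and 10155 in WT_clone libraries, and 7640, 12636 and 5359 in WT_EV libraries. On the CPM scale of the larger table the level was 172 and 324 in DXp, 365 and 355 in DXp_DXm, and 430, 533 and 321 in WT_EV. DXp replicate 1 was the lowest library, and DXp replicate 2 and both DXp_DXm libraries lay within the range of WT_EV. The log2 change was -0.79 (SE 0.31) for DXp against WT_EV, -0.25 (SE 0.31) for DXp_DXm against WT_EV and 0.54 (SE 0.34) for DXp_DXm against DXp. Leaving out DXp replicate 1 or 2 gave -0.28 or -1.30 for DXp against WT_EV. With offsets for GC content and length, the change was -1.95 for DXp and -1.27 for DXp_DXm against WT_EV, so the size of the host's difference depends on that correction.

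As CPM over the shared genes, Sfmbt2 stood at 754 and 1434 in DXp, 1537 and 1567 in DXp_DXm, 1440 and 1718 in WT_clone, and 2461, 3037 and 1849 in WT_EV. On this scale the order from low to high was DXp, DXp_DXm and WT_clone, then WT_EV. DXp_DXm lay inside the range of WT_clone, the highest DXp library was just below the lowest WT_clone library, and the WT_EV libraries were above the rest. The log2 change was -0.63 (SE 0.32) for WT_clone against WT_EV, -0.53 (SE 0.35) for DXp against WT_clone and -0.02 (SE 0.35) for DXp_DXm against WT_clone. With offsets for GC content and length the change of WT_clone against WT_EV was -1.28.

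Set against the host in the same library, the cluster's difference does not depend on depth or scaling. For each 1000 reads on Sfmbt2 exons there were 14.8 and 0.834 cluster reads in DXp replicates 1 and 2, 14.3 and 8.40 in DXp_DXm, 2.62 and 1.77 in WT_clone, and 179, 170 and 177 in WT_EV. The group means were 7.84 ± 9.90 in DXp, 11.4 ± 4.17 in DXp_DXm, 2.20 ± 0.599 in WT_clone (SD, n = 2 each) and 175 ± 4.62 in WT_EV (SD, n = 3). The 3 WT_EV libraries differed from each other by far less than from any other library. Per kb, hairpin genes carried 2.05% and 0.115% of the read density of Sfmbt2 exons in DXp, 1.97% and 1.16% in DXp_DXm, 0.362% and 0.245% in WT_clone, and 24.7%, 23.5% and 24.4% in WT_EV.

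**Figure D2:**
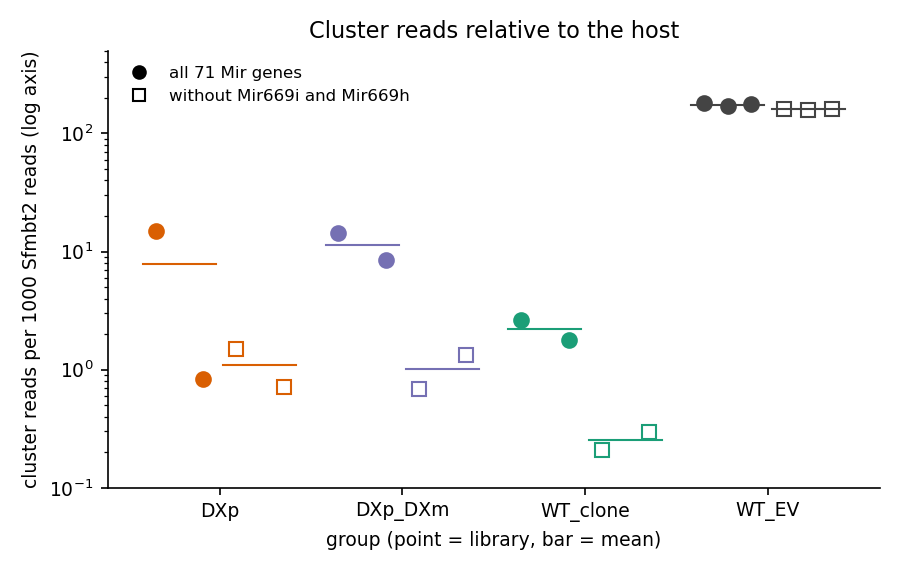
Cluster reads per 1000 Sfmbt2 reads in each library (log axis), for all 71 Mir genes (filled circles) and without Mir669i and Mir669h (open squares), with bars for group means. WT_EV libraries sit at 170 to 179 with all members, and the other libraries at 14.8 or less.

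The largest single counts came from the miR-669 and miR-466 families, spread over the whole cluster. Mir669k (chr2:10475300-10475426) had 0 reads in the 6 libraries outside WT_EV and 87, 89 and 26 in WT_EV. Mir466p (chr2:10506006-10506094) had 0 and 1 in DXp replicates 1 and 2, 0 in DXp_DXm and WT_clone, and 53, 75 and 33 in WT_EV. Both were thus nearly confined to WT_EV. Mir669a-4 (chr2:10479315-10479401) had 0 in the 6 libraries and 36, 78 and 29 in WT_EV. Mir669a-11 (chr2:10501339-10501425) had 0 in the 6 libraries and 42, 71 and 30 in WT_EV. Mir669a-5 (chr2:10481761-10481847) had 0 in the 6 libraries and 44, 66 and 29 in WT_EV. These 3 hairpins are identical in sequence, so the split of reads between them is uncertain. Mir466o (chr2:10472540-10472623) had 0 in the 6 libraries and 41, 64 and 23 in WT_EV. Mir466e (chr2:10479088-10479171) had 0 and 1 in DXp replicates 1 and 2, 0 in DXp_DXm and WT_clone, and 40, 62 and 23 in WT_EV. In these 7 genes WT_EV replicate 2 was the highest library and replicate 3 the lowest. Mir466 (chr2:10507918-10507990) went the other way within WT_EV: it had 0 in DXp, 0 and 1 in DXp_DXm, 0 in WT_clone, and 22, 26 and 76 in WT_EV.

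By family, the 29 Mir669 genes held 48 and 1 reads in DXp replicates 1 and 2, 122 and 69 in DXp_DXm, 23 and 16 in WT_clone, and 766, 1110 and 457 in WT_EV. The 23 Mir466 genes held 2 and 6 in DXp, 3 and 4 in DXp_DXm, 0 and 2 in WT_clone, and 402, 620 and 332 in WT_EV. The 14 Mir467 genes held 0 in all 6 libraries outside WT_EV and 110, 227 and 76 in WT_EV. The 5 Mir297 genes held 0 in DXp, 1 and 3 in DXp_DXm, 2 and 0 in WT_clone, and 90, 193 and 82 in WT_EV. All 4 families were thus higher in each WT_EV library than in any other, and reads outside WT_EV fell mostly on Mir669 genes. Across the 71 genes the 3 WT_EV libraries ranked the members alike, with Spearman's rho of 0.934, 0.879 and 0.876 between pairs of libraries, which share the same hairpins and the same repeats.

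Of the 71 genes, 12 had no read in any library and 59 had at least 1 read in WT_EV. In all, 51 of the 71 had 0 reads in all 6 libraries outside WT_EV. Relative to host reads, 54 of the 59 were lower in each of the 6 libraries than in any WT_EV library. The remaining 5 were Mir466b-5, Mir669p-1, Mir669a-8 and Mir467a-9, each with hardly any reads, and Mir669h. These counts only describe the set, which was chosen with its separation of WT_EV known, and no matching share over all genes is given.

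Along the intron, WT_EV reads on the Mir genes fell in 2 blocks with few reads between them. The part between the blocks was not empty: Mir466b-7 and Mir669p-2 there had WT_EV sums of 17 and 10. Of the Gm-named hairpins there, Gm23108, Gm24673 and Gm23569 had sums of 76, 67 and 81, and several others had 0. Members with fewer than 10 reads summed over the 3 WT_EV libraries numbered 17, and they lay from 22.25 to 36.96 kb into the intron apart from 1 at 41.84 kb. In all 17, every 50-base stretch of the hairpin occurs again in another hairpin of the intron. Of the 71 members, 30 had all their 50-base stretches repeated in this way, and their WT_EV sums had a median of 2.5 and a range of 0 to 143. For the 20 members with some repeated stretches the median was 84.5 and the range 23 to 202, and for the 21 with none the median was 61.0 and the range 35 to 228. The clearest case is a set of 9 identical hairpins of 87 bases, Mir669a-4 to Mir669a-12, whose WT_EV sums in order along the intron were 143, 139, 6, 0, 1, 0, 45, 143 and 93. How reads that match several places were counted is not given in the sources used here, so a 0 between the blocks does not show that the hairpin was not transcribed.

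**Figure D3:**
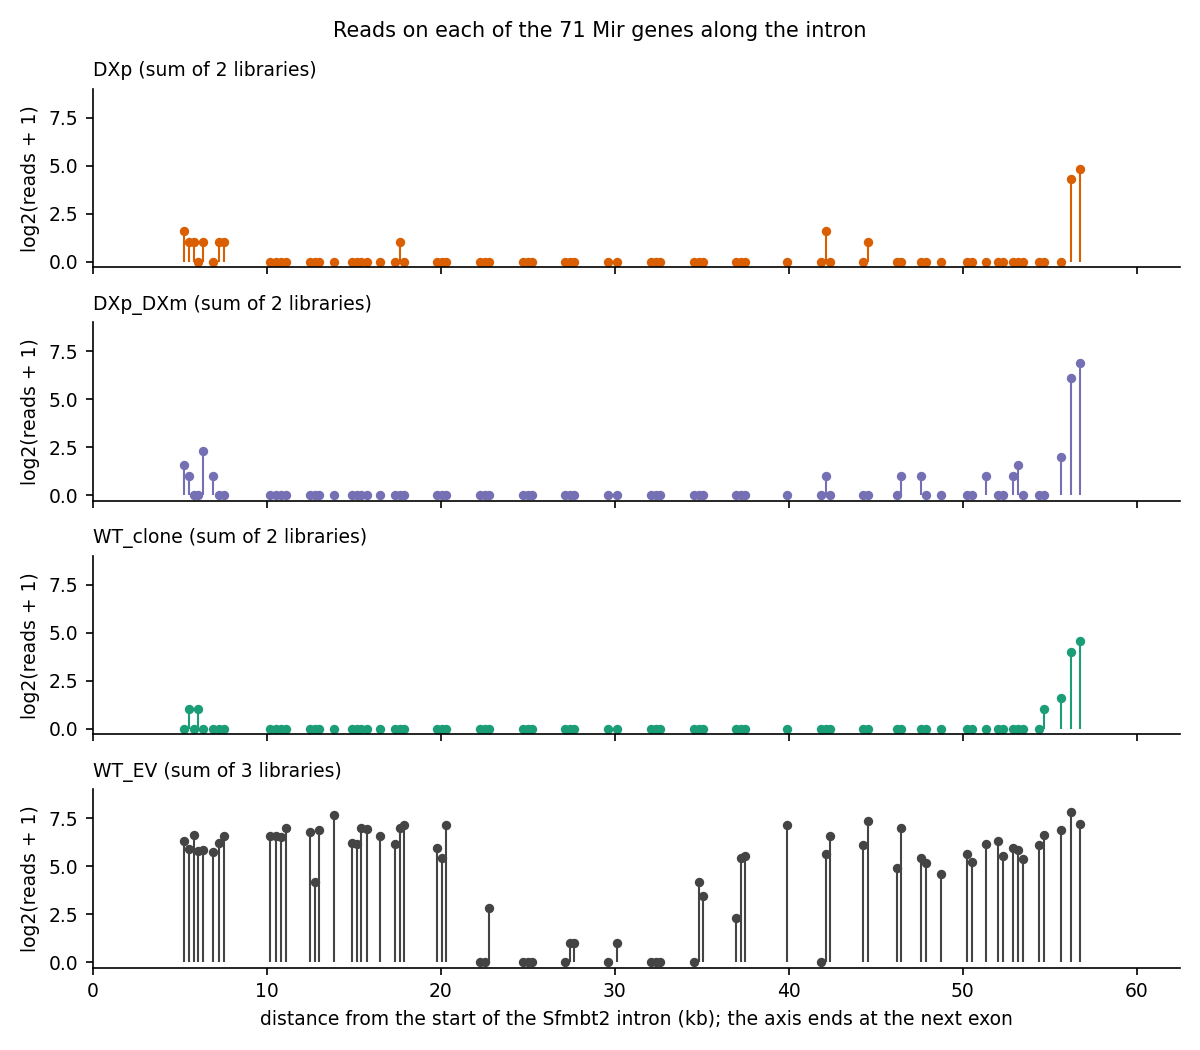
Reads on each of the 71 Mir genes, summed over the libraries of a group and drawn as log2(reads + 1), against the distance from the start of the intron in kb. In WT_EV the reads run along the cluster with few reads on the Mir genes in the middle, and in DXp, DXp_DXm and WT_clone the tallest points are Mir669i and Mir669h at the far end.

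The reads that remained outside WT_EV sat mainly on the last 2 hairpins of the cluster. Mir669i (chr2:10517604-10517730) had 19 and 0 reads in DXp replicates 1 and 2, 43 and 24 in DXp_DXm, 10 and 5 in WT_clone, and 85, 92 and 51 in WT_EV. Mir669h (chr2:10518155-10518279), which starts 551 bases further on, had 26 and 1 in DXp replicates 1 and 2, 77 and 40 in DXp_DXm, 13 and 10 in WT_clone, and 57, 59 and 32 in WT_EV. The raw counts of Mir669h in DXp_DXm and WT_EV overlap. Together the pair took 90.0% and 14.3% of the cluster's reads in DXp replicates 1 and 2, 95.2% and 84.2% in DXp_DXm, 92.0% and 83.3% in WT_clone, and 10.4%, 7.02% and 8.77% in WT_EV. DXp replicate 2 stands apart here, since its 7 cluster reads include only 1 from the pair.

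Relative to the host, Mir669h had 7.72 and 0.119 reads per 1000 Sfmbt2 reads in DXp replicates 1 and 2, 8.74 and 4.42 in DXp_DXm, 1.36 and 0.985 in WT_clone, and 7.46, 4.67 and 5.97 in WT_EV. DXp replicate 1 and DXp_DXm replicate 1 were above the highest WT_EV library, and DXp replicate 2, DXp_DXm replicate 2 and both WT_clone libraries were below the lowest. Mir669i had 5.64 and 0 per 1000 in DXp replicates 1 and 2, 4.88 and 2.65 in DXp_DXm, 1.05 and 0.492 in WT_clone, and 11.1, 7.28 and 9.52 in WT_EV. Mir669i thus lay below WT_EV in all 6 libraries. Mir297a-4, the Mir gene just before the pair, had 0 in DXp, 1 and 2 reads in DXp_DXm, 2 and 0 in WT_clone, and 21, 68 and 27 in WT_EV.

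**Figure D4:**
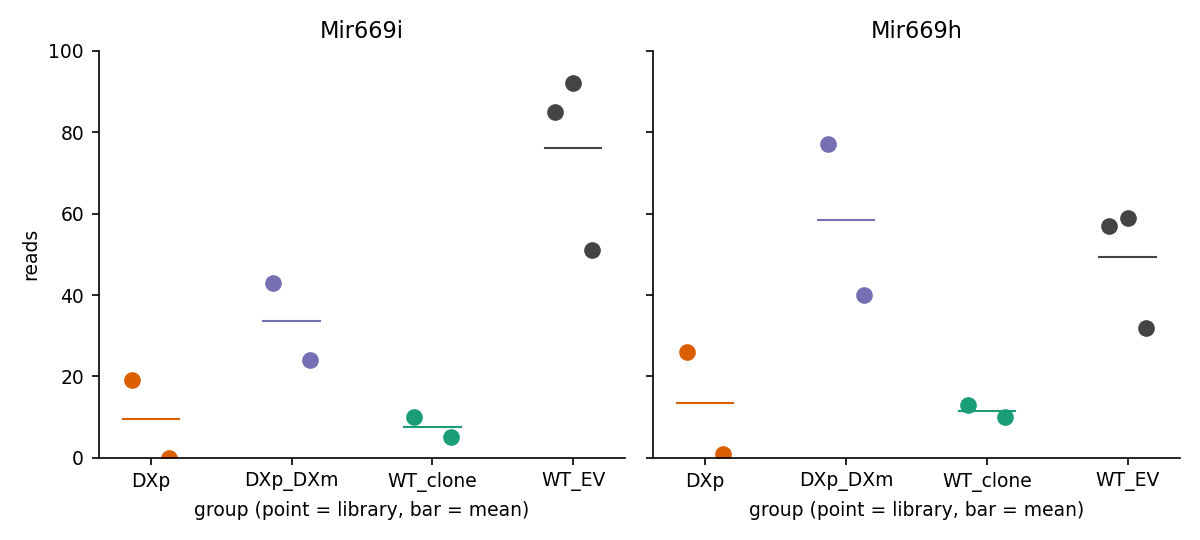
Reads on Mir669i (left) and Mir669h (right) in each library of DXp, DXp_DXm, WT_clone and WT_EV, not corrected for depth, with bars for group means. Mir669h in DXp_DXm, at 77 and 40, overlaps WT_EV at 32 to 59, and DXp replicate 2 sits at 0 and 1.

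The other 69 members were close to empty outside WT_EV. They had 5 and 6 reads in DXp replicates 1 and 2, 6 and 12 in DXp_DXm, 2 and 3 in WT_clone, and 1226, 1999 and 864 in WT_EV. No one of them exceeded 3 reads in any of the 6 libraries. Of their 34 reads in these libraries, 17 fell on the 8 members that start in the first 3 kb of the cluster and 5 on Mir297a-4. Per 1000 Sfmbt2 reads they averaged 1.10 ± 0.544 in DXp, 1.0 ± 0.456 in DXp_DXm, 0.252 ± 0.0607 in WT_clone (SD, n = 2 each) and 160 ± 1.57 in WT_EV (SD, n = 3). Without the pair, the cluster's log2 change was -8.13 for DXp against WT_EV, -7.57 for DXp_DXm against WT_EV and -9.92 for WT_clone against WT_EV. Set against WT_clone, the sum without the pair was 2.65 times as high in DXp and 3.86 times as high in DXp_DXm, at counts of 12 or fewer per library. On the pair, WT_clone had 23 and 15 reads, DXp_DXm had 120 and 64, and DXp replicates 1 and 2 had 45 and 1. DXp replicate 2 thus lay below WT_clone on the pair.

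No calls are given for the members. Of the 71 Mir genes, 49 passed the filter on low counts in the fit of 7 libraries and 53 in the fit of all 9, most of them only through WT_EV, where they are high, so a difference from WT_EV was fixed by the filter and by the choice of the set. As background for the genes outside the set, edgeR at an adjusted p under 0.05 called 72.3% of 15331 tested genes in DXp against WT_EV, with 40.1% lower and 32.2% higher. In DXp_DXm against WT_EV it called 66.8%, with 36.0% lower and 30.9% higher. In WT_clone against WT_EV it called 30.6% of 3302 tested genes, with 15.4% lower. The shares were 0.444% for DXp_DXm against DXp, 40.2% for DXp against WT_clone and 25.0% for DXp_DXm against WT_clone.

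The 48 Gm-named microRNA genes of the same intron went with the named ones. They summed to 9 and 10 reads in DXp replicates 1 and 2, 22 and 16 in DXp_DXm, 7 and 1 in WT_clone, and 1186, 1480 and 600 in WT_EV. Gm24806, which lies between Mir297a-4 and Mir669i, had 4 and 0 reads in DXp, 15 and 13 in DXp_DXm, 6 and 0 in WT_clone, and 79, 77 and 33 in WT_EV. They share the cluster's intron and repeats and are not independent of it, and most passed the filter on low counts only through WT_EV, so no calls are given for them either.

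Away from the locus, microRNA genes moved both ways. Over 1103 such genes, reads summed to 2251 and 3076 in DXp replicates 1 and 2, 1571 and 2584 in DXp_DXm, and 1509, 2320 and 1031 in WT_EV. Of these genes 42 passed the filter on low counts, many of them only through the group where they are high, so no count of calls against WT_EV is given. Mir703, the gene with the most reads among them, had 1353 and 2278 in DXp replicates 1 and 2, 849 and 1789 in DXp_DXm, and 20, 10 and 5 in WT_EV. Mir703 alone held most of the reads summed in each deletion library, so the sums say little about the other genes. Most of the 42 were lower in each deletion than in WT_EV, many of them having passed the filter through WT_EV. Of the 252 microRNA genes elsewhere that the WT_clone table also lists, 8 passed the filter, and for the same reason no calls are given.

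The Mir290 to Mir295 cluster on chromosome 7, known from pluripotent and early embryonic cells, is the other microRNA cluster with many reads, and its members differed along the cluster. Its first member Mir290a had 0 and 5 reads in DXp replicates 1 and 2, 1 and 0 in DXp_DXm, and 168, 191 and 47 in WT_EV. Mir291a had 0 reads in all 4 deletion libraries and 102, 147 and 39 in WT_EV, and Mir291b had 0 in all 4 and 135, 168 and 45 in WT_EV. Mir292 had 1 and 0 in DXp, 5 and 2 in DXp_DXm, and 62, 81 and 16 in WT_EV. These first 4 hairpins were close to empty in both deletions. Further along, Mir293 had 0 and 3 in DXp, 33 and 27 in DXp_DXm, and 73, 106 and 30 in WT_EV. Mir294 had 3 and 26 in DXp, 32 and 54 in DXp_DXm, and 11, 25 and 2 in WT_EV. The last, Mir295, had 0 and 1 in DXp, 19 and 10 in DXp_DXm, and 47, 60 and 7 in WT_EV. The first 4 and Mir295 passed the filter on low counts only through WT_EV, so no calls are given for them. Mir293 was lower at an adjusted p under 0.05 in DXp against WT_EV by edgeR and did not pass in DXp_DXm, and Mir294 passed in neither. Between DXp_DXm and DXp, edgeR called 0 of the 42 genes, with 5 at an unadjusted p under 0.05 and 1 called by DESeq2.

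RNAs that lack a poly(A) tail separated the libraries in the same way as the cluster. Summed over 16 such genes, among them Rn7sk, the RNA of the 7SK particle, and the replication-dependent histone gene Hist2h3b, reads ranged from 16 to 43 in DXp, 26 to 27 in DXp_DXm and 198258 to 285795 in WT_EV. Of the 16, 13 passed the filter on low counts, and only through WT_EV, where they are high, so no calls are given for them. The WT_clone table as used here holds none of the 16. Small nuclear, nucleolar and Cajal-body RNAs, counted over 642 genes in both tables, took 0.0247% and 0.0207% of shared-gene reads in DXp replicates 1 and 2, 0.0234% and 0.0184% in DXp_DXm, 0.0115% and 0.0139% in WT_clone, and 0.288%, 0.238% and 0.259% in WT_EV. Their part in the cluster's difference was not tested, and whether RNA was selected by its poly(A) tail is not given in the sources used here. In bulk RNA, fewer cells with a transcript and less transcript per cell cannot be told apart.

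The genes that process microRNAs differed between the deletions and WT_EV in both directions. Of 30 listed genes, all tested, 12 were higher and 10 lower in DXp against WT_EV, and 13 were higher and 9 lower in DXp_DXm against WT_EV, at an adjusted p under 0.05 by edgeR over all genes. The median log2 change of the list was -0.20 in DXp and 0.42 in DXp_DXm, beside -0.35 and -0.15 over all tested genes. With 72.3% and 66.8% of all genes called, such counts are near the background. With offsets for GC content and length, 13 of the 30 were called in DXp_DXm, and calls over all genes fell as well in that comparison.

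Among the Dicer partners and cofactors, Tarbp2, which binds Dicer1 and loads Argonaute, averaged 1.78 ± 0.272 CPM in DXp and 76.3 ± 11.0 CPM in WT_EV, -5.41 on the log2 scale (SE 0.27; adjusted p = 4.46e-06, edgeR). In DXp_DXm it averaged 2.93 ± 0.141 CPM, -4.70 on the log2 scale (SE 0.26; adjusted p = 7.18e-06, edgeR). Mov10, an RNA helicase found with Argonaute, averaged 4.17 ± 0.546 CPM in DXp, 5.77 ± 0.164 CPM in DXp_DXm and 79.2 ± 7.78 CPM in WT_EV, and fell in both deletions (adjusted p = 4.46e-06 and 8.44e-06, edgeR). Srrt, which links the cap-binding complex to primary microRNA processing, averaged 14.8 ± 4.03 CPM in DXp, 25.8 ± 2.36 CPM in DXp_DXm and 166 ± 22.6 CPM in WT_EV (adjusted p = 6.82e-06 and 3.22e-05, edgeR). Tut4, the terminal uridylyl transferase that tags let-7 precursors together with Lin28a, rose, to 782 ± 77.8 CPM in DXp and 315 ± 77.6 CPM in DXp_DXm, against 52.7 ± 15.9 CPM in WT_EV (adjusted p = 5.07e-06 and 4.60e-05, edgeR). All 4 still passed in both deletions with offsets for GC content and length, at smaller log2 changes in DXp and DXp_DXm: -3.53 and -3.07 for Tarbp2, -1.62 and -1.28 for Mov10, -1.23 and -0.60 for Srrt, and 2.05 and 1.11 for Tut4.

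The core enzymes were singled out after their values were seen. Drosha, the Microprocessor nuclease, averaged 68.3 ± 10.8 CPM in DXp, 68.0 ± 16.1 CPM in DXp_DXm and 124 ± 26.8 CPM in WT_EV, and was called lower in both deletions (adjusted p = 0.0164 and 0.0174, edgeR). That call is fragile: with offsets for GC content and length the log2 change of Drosha was 0.09 in DXp and -0.19 in DXp_DXm, and without WT_EV replicate 1 the adjusted p was 0.0613 and 0.0649 (edgeR). Its partner Dgcr8 averaged 36.3 ± 13.3 CPM in DXp, 74.9 ± 39.8 CPM in DXp_DXm and 67.1 ± 14.6 CPM in WT_EV, and passed in neither (adjusted p = 0.0582 and 0.723, edgeR). Dicer1 averaged 267 ± 33.8 CPM in DXp, 209 ± 53.1 CPM in DXp_DXm and 176 ± 29.1 CPM in WT_EV, and passed in neither (adjusted p = 0.0514 and 0.400, edgeR). Xpo5, the exporter of precursor hairpins, averaged 53.6 ± 23.3 CPM in DXp, 79.6 ± 30.1 CPM in DXp_DXm and 164 ± 10.01 CPM in WT_EV, and fell in both (adjusted p = 0.00173 and 0.0180, edgeR), with an adjusted p of 0.156 in DXp_DXm without its replicate 2.

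Between DXp_DXm and DXp, edgeR called 0 of the 30 processing genes, with 8 at an unadjusted p under 0.05 and 5 called by DESeq2. The lowest p belonged to Tut4, with -1.31 on the log2 scale (SE 0.32; adjusted p = 0.0739), then to Lin28a, the let-7 binding protein, at 0.94 (SE 0.23, adjusted p = 0.0745). Ncbp2, a cap-binding subunit, had 1.19 (SE 0.29, adjusted p = 0.0745) and Lin28b 2.25 (SE 0.58, adjusted p = 0.0870). Of the 30 genes, 4 are held for WT_clone. Against WT_EV, WT_clone had 0 of 4 called by edgeR, beside 30.6% of all genes, with 2 at an unadjusted p under 0.05 and 1 called by DESeq2. The 2 were Prkra, a Dicer partner, at 0.80 on the log2 scale (SE 0.28; adjusted p = 0.0502, edgeR) and the RNA-editing enzyme Adar at -1.03 (SE 0.44, adjusted p = 0.102, edgeR), while Dis3l2 and Xrn2, both exonucleases, had -0.27 (SE 0.32) and 0.15 (SE 0.27). Adar was the 1 of 4 that was lower in each deletion against WT_clone, beside 25.0% and 17.6% of all genes. Its log2 change was -2.03 (SE 0.48, adjusted p = 0.00861, edgeR) in DXp and -2.28 (SE 0.48, adjusted p = 0.00786, edgeR) in DXp_DXm. Neither passed with offsets for GC content and length (adjusted p = 0.531 and 0.293), nor DXp without its replicate 1 (0.0922) or DXp_DXm without its replicate 2 (0.0810).

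**Figure D5:**
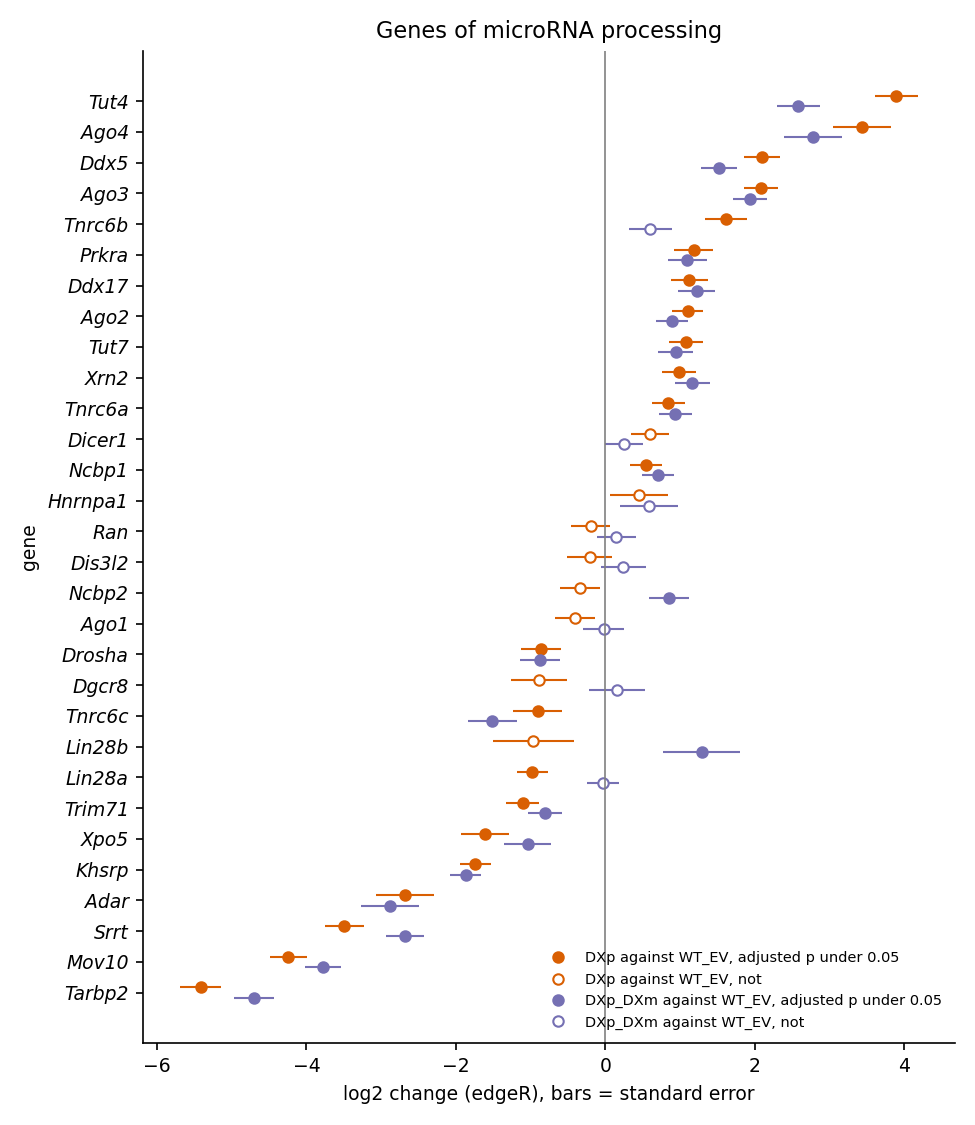
Log2 change of each of the 30 microRNA processing genes in DXp against WT_EV and DXp_DXm against WT_EV, with standard errors, ordered by the first. Filled points passed an adjusted p under 0.05 in edgeR (22 of 30 in each comparison), and Tarbp2, at -5.41 and -4.70, is the lowest.

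Genes for proteins with MBT domains and for partners of their complexes were called in both directions. Of 17 listed genes 13 were tested, and 7 were higher and 3 lower in each deletion against WT_EV by edgeR, near the background of 72.3% and 66.8% called. The median log2 change was 0.87 in DXp and 0.70 in DXp_DXm, beside -0.35 and -0.15 over all tested genes. L3mbtl2, an MBT protein of a variant Polycomb complex, averaged 4.98 ± 0.323 CPM in DXp, 5.61 ± 0.727 CPM in DXp_DXm and 87.5 ± 15.9 CPM in WT_EV (adjusted p = 4.77e-06 and 9.20e-06, edgeR). Phc2, a Polyhomeotic subunit, averaged 1.97 ± 0.109 CPM in DXp, 1.17 ± 0.241 CPM in DXp_DXm and 38.6 ± 2.83 CPM in WT_EV (adjusted p = 5.23e-06 and 7.33e-06, edgeR). Its relative Phc3 went the other way, with 183 ± 30.7 CPM in DXp, 100 ± 24.3 CPM in DXp_DXm and 31.2 ± 1.36 CPM in WT_EV (adjusted p = 1.17e-05 and 0.000185, edgeR). Mga, the DNA-binding scaffold of the complex that holds L3mbtl2, averaged 809 ± 154 CPM in DXp, 618 ± 99.1 CPM in DXp_DXm and 181 ± 34.4 CPM in WT_EV (adjusted p = 3.84e-05 and 0.000181, edgeR). With offsets for GC content and length, 5 of the 13 were called in each deletion: Mga passed in neither (log2 change 0.15 and 0.23), Phc3 in DXp alone, and L3mbtl2 and Phc2 in both. Calls over all genes also fell with the offsets in DXp_DXm against WT_EV, and for DXp against WT_EV that count is not given here.

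The paralogue Sfmbt1 averaged 33.7 ± 0.917 CPM in DXp, 21.2 ± 2.92 CPM in DXp_DXm and 20.8 ± 7.10 CPM in WT_EV, and passed in neither deletion (adjusted p = 0.0764 and 0.953, edgeR). Between DXp_DXm and DXp, edgeR called 0 of 13, with 4 at an unadjusted p under 0.05 and 2 called by DESeq2. The lowest p was that of Yy1, a DNA-binding factor whose fly homologue Pho recruits Polycomb proteins, at -0.99 on the log2 scale (SE 0.26; adjusted p = 0.0890, edgeR). Scml2 followed at 4.15 (SE 1.39, adjusted p = 0.110), Phc3 at -0.87 (SE 0.26, adjusted p = 0.117) and Phc2 at -0.75 (SE 0.34, adjusted p = 0.234), all by edgeR. In WT_clone against WT_EV, edgeR called 3 of 3 tested genes higher, beside 15.3% of all genes. Scml2 had 5.49 (SE 1.47), Phc3 0.95 (SE 0.28) and Mga 0.90 (SE 0.28), with adjusted p = 0.0081, 0.0244 and 0.0330 by edgeR. Scml2 averaged 10.2 CPM in WT_clone, 0.230 in WT_EV and 0.256 in DXp, and passed the filter only through groups where it is high. The calls on Scml2 in WT_clone against WT_EV and in DXp against WT_clone were thus favoured by the filter. Under the offsets Phc3 had 0.05 and Mga 0.16, and neither passed with them, with the replicate block or without any 1 of the WT_EV libraries. In DXp against WT_clone, Phc3 was higher at 1.22 (SE 0.30, adjusted p = 0.00943), Mga higher at 0.88 (SE 0.31, adjusted p = 0.0447) and Scml2 lower at -5.07 (SE 1.39, adjusted p = 0.00999), by edgeR and beside 40.2% of all genes called. With the offsets Phc3 had 0.51 and Mga -0.14 and neither passed, and without DXp replicate 1 none of the 3 passed. In DXp_DXm against WT_clone 0 of 3 were called by edgeR, with 0 at an unadjusted p under 0.05 and 0 by DESeq2.

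Of 18 genes within 2 Mb of Sfmbt2, 10 were tested, and 4 were called higher and 0 lower in each deletion against WT_EV by edgeR, beside 32.2% and 30.9% of all genes higher. Called either way by DESeq2 were 5 in each. The median log2 change was 0.56 in DXp and 0.71 in DXp_DXm. Among the 6 tested genes nearest to Sfmbt2, Kin, a DNA- and RNA-binding protein, had a log2 change of 0.23 (SE 0.30) in DXp and 0.53 (SE 0.30) in DXp_DXm. Atp5c1, a subunit of the ATP synthase, had 0.58 (SE 0.25, adjusted p = 0.0550) in DXp and 0.74 (SE 0.25, adjusted p = 0.0222) in DXp_DXm. Taf3, a subunit of TFIID, had 0.69 (SE 0.25, adjusted p = 0.0292) in DXp and 0.34 (SE 0.25, adjusted p = 0.251) in DXp_DXm, all by edgeR. With offsets for GC content and length the change of Taf3 in DXp was -0.15, and without DXp_DXm replicate 2 the neighbours called in DXp_DXm numbered 1 in place of 4. The transcription factor Gata3 was barely read, at 1.74 ± 1.80 CPM in DXp, 0.914 ± 0.707 CPM in DXp_DXm and 0.0388 ± 0.0336 CPM in WT_EV, and passed in both (adjusted p = 0.00178 and 0.00687, edgeR). Gata3 is 1 of the 4 called higher in each deletion. It passed the filter on low counts only through the deletion libraries, where it is high, so these calls were favoured by the filter. Pfkfb3, which makes the activator of glycolysis, had 0.53 (SE 0.67) in DXp and 0.74 (SE 0.67) in DXp_DXm, and the splicing factor Rbm17 had 0.03 (SE 0.22) and 0.10 (SE 0.22).

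Further off, the deubiquitinase gene Mindy3 averaged 107 ± 33.7 CPM in DXp, 82.6 ± 23.5 CPM in DXp_DXm and 25.6 ± 2.02 CPM in WT_EV (adjusted p = 9.74e-05 and 0.00045, edgeR). The integrin gene Itga8 averaged 3.94 ± 2.52 CPM in DXp, 5.50 ± 5.61 CPM in DXp_DXm and 0.649 ± 0.303 CPM in WT_EV (adjusted p = 0.0141 and 0.00661, edgeR). Neither gene passed in either deletion with offsets for GC content and length. In WT_clone against WT_EV, 2 of 10 were higher, beside 15.3% of all genes. They were Gata3 at 7.04 on the log2 scale (SE 1.68; adjusted p = 0.00521, edgeR) and Taf3 at 0.85 (SE 0.28, adjusted p = 0.0392, edgeR). Gata3 passed the filter on low counts only through groups other than WT_EV, so its call was favoured by the filter. The call on Taf3 is fragile: its adjusted p ran from 0.0152 to 0.373 over the alternatives, and it was lost with RLE or protein-coding scaling, no filter, the offsets, the replicate block, the 2 groups alone, or without WT_clone replicate 1 or any WT_EV library. Against WT_clone, Mindy3 was the 1 of 10 that was higher in each deletion, beside 15.2% and 7.36% of all genes. Its log2 change was 1.60 (SE 0.34, adjusted p = 0.00426, edgeR) in DXp and 1.20 (SE 0.34, adjusted p = 0.0261, edgeR) in DXp_DXm, and with those offsets it passed in neither (0.164 and 0.293). Between DXp_DXm and DXp, 0 of 10 were called by edgeR and 0 had an unadjusted p under 0.05.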

How the data were processed

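Total RNA was extracted with Trizol and made into libraries with a stranded kit of 1 of 2 makes, per the labels' protocols. The submitters' processing notes name FastQC, STAR 2.7.9a and featureCounts 2.0.1 with GRCm38, and the authors deposited raw counts per gene in 2 tables: one of 55401 genes for WT_EV, DXp and DXp_DXm, and one for WT_clone, of which 11512 genes were used here and 1 incomplete line was left out. The sources used here do not state how the counting treated strand or reads with several matches. Library totals were 14352719 to 29335803 counts in the larger table.

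IDs were joined to symbols and positions of the GENCODE vM21 annotation (55141 IDs matched). The rule for the cluster, the gene lists and the tests were chosen with earlier results of these data known. edgeR 4.0.16 (R 4.3.3; filterByExpr, TMM, robust quasi-likelihood test, Benjamini-Hochberg over all tested genes, threshold 0.05) was fitted to the 7 libraries of the larger table (15331 genes tested) and to all 9 over shared genes (3302 tested), without a replicate term. CPM are TMM-scaled within each fit. Cluster sums are sums of raw counts, divided by the same scaling or by the counts of Sfmbt2. The scripts were tested on simulated counts. Named in full were Sfmbt2 and the 10 Mir genes with the most reads; from other lists, up to 4 tested genes per comparison with the lowest p and the 6 nearest tested neighbours. Alternatives were RLE scaling, scaling from protein-coding genes, no filter, GC and length offsets, DESeq2 1.42.0, a replicate block, fits of 2 groups alone, and leaving out each library. Rmrp matches 2 IDs and was left out. Sequences came from RefSeq tables of GRCm38.p6. Poly(A)-less and marker lists served as checks.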

Additional observations from a re-analysis of the deposited data

How the results depend on the processing

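The cluster was lower in DXp, DXp_DXm and WT_clone than in WT_EV under all scalings, filters and left-out libraries that were run. The set was chosen with this large difference known, so its direction under these settings is a description and no further support. Member values outside WT_EV rest on few reads, and 2 libraries per deletion limit the comparison between deletions.

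Without Mir669i and Mir669h, an alternative chosen after seeing the data, the cluster's log2 change was -8.13 for DXp, -7.57 for DXp_DXm and -9.92 for WT_clone against WT_EV, and its reads per 1000 Sfmbt2 reads were 1.0 in DXp_DXm, 0.252 in WT_clone and 160.0 in WT_EV. Without Mir669i alone they were 1.43 in WT_clone and 166 in WT_EV. With 1 library left out, the cluster's change ran from -7.99 to -4.86 for DXp against WT_EV, -1.49 to 1.71 for DXp against WT_clone and 0.68 to 3.88 for DXp_DXm against DXp, the extremes lacking DXp replicate 1 or 2. That of Sfmbt2 ran from -1.30 to -0.28, -1.07 to -0.12 and 0.12 to 1.07 in the same comparisons. GC and length offsets gave Sfmbt2 -1.95, -1.27 and -1.28 for DXp, DXp_DXm and WT_clone against WT_EV. With them 13 processing genes were called in DXp_DXm, against 22, and 5 MBT genes in each deletion, against 10, and Drosha (0.088) and Taf3 (-0.15) in DXp against WT_EV and Mga (-0.14) in DXp against WT_clone changed sign.

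The 40 named calls outside the cluster were refitted 499 times over the alternatives, and the call was kept in 426 of these, lost in 70 and reversed in 3. Between DXp_DXm and DXp, no filter, DESeq2 and a crossed replicate block called 6, 5 and 5 processing genes and 2, 2 and 3 MBT genes, against 0. Over all genes that comparison gave 68 calls, against 1436 with no filter, 1181 by DESeq2, 36 with the offsets, 10 with the 2 groups alone and 2 to 144 with 1 library left out. The offsets gave 6675 calls for DXp_DXm against WT_EV, 520 for DXp and 229 for DXp_DXm against WT_clone, where the main fits gave 10243, 1329 and 824.

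Called neighbours numbered 1 in WT_clone against WT_EV under RLE or protein-coding scaling, the offsets or 2 groups alone, and 1 to 4 with 1 library left out. They numbered 1 to 5 in DXp_DXm against WT_EV, 1 to 3 in DXp and 0 to 3 in DXp_DXm against WT_clone with 1 library left out. Against WT_clone they were 2 in each deletion with no filter or the replicate block, 0 in each with the offsets, 2 in DXp and 0 in DXp_DXm with 2 groups alone, and 3 in DXp_DXm by DESeq2. The cause of these shifts was not tested.

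Same-numbered libraries did not deviate together: the correlation of deviations between DXp and DXp_DXm was -0.20. With 2 libraries in each group, both numbers must give the same value. A crossed pairing was added because of this value and gave 1573 calls between DXp_DXm and DXp over all genes, a count that the choice favours. The replicate block changed Sfmbt2 to -0.996 in DXp and -0.39 in DXp_DXm against WT_EV, gave 92 calls for DXp_DXm against DXp, and ended 6 of the 40 named calls (Taf3 in DXp, Atp5c1 in DXp_DXm, and Phc3, Mga and Taf3 in WT_clone, all against WT_EV, and Mga in DXp against WT_clone).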
